A study of Mus musculus with 32 samples.

Results

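The CC chemokines are small secreted proteins that recruit leukocytes, and this account covers the RNA of 9 of them in mouse chondrocytes: Ccl2, Ccl3, Ccl4, Ccl5, Ccl7, Ccl8, Ccl9, Ccl11 and Ccl20. The members were taken by symbol from the 41388 genes counted in 32 RNA-seq libraries, with no use of their values. Each library held cells from the sterna and ribs of newborn C57BL/6 mice, grown as primary cultures. The 3 floxed lines, LDHA flox, NAMPT flox and NFKBIZ flox, received an adenovirus carrying either GFP or Cre, and each virus arm was left without cytokine or was given IL-1b at 10 ng/mL for 24 h, which made 4 conditions a line. The wild type cells received no virus and were untreated, or were given IL-1b, the lactate dehydrogenase inhibitor FX11 at 40 µM, or both, for 24 h. Each of the 16 conditions held 2 libraries, and the sample titles fall into a first series of 12 libraries and a second of 20. Because no wild type culture received Cre, the deletion of a gene and the presence of Cre cannot be told apart in any line, and because nothing states that the 2 libraries of a condition came from separate cultures or animals, p-values measure only the spread between libraries.

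Chemokines of this family have adjacent cysteines near the amino terminus and act through G protein-coupled receptors on leukocytes. Ccl2 and Ccl7 attract monocytes through Ccr2, Ccl3, Ccl4 and Ccl5 attract monocytes and T cells, Ccl9 acts through Ccr1, Ccl11 attracts eosinophils through Ccr3, and Ccl20 is the ligand of Ccr6. In joints, IL-1b is known to raise several of them through NF-κB, and IκB-ζ, the product of Nfkbiz, is a nuclear cofactor of NF-κB at a subset of these genes.

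Of the 9 genes, 8 lay on chromosome 11, where most of the family is clustered, and Ccl20 lay on chromosome 1. Sequence just upstream of the start was at hand for Ccl20, Ccl9, Ccl3 and Ccl8 in RefSeq (GRCm38.p6), and the other 5 members were not matched. The upstream windows of Ccl20 and Ccl9 are shown because Ccl20 rose from near 0 with IL-1b and Ccl9 was not called higher, as described below. Each is the 250 bases before the start, 5′ to 3′ along the gene's own strand, and capitals mark bases that fall in a match to a κB-like pattern (GGGNNNNNCC) or an AP-1 pattern (TGANTCA) on either strand.
Ccl20, chr1:83116516-83116765, + strand: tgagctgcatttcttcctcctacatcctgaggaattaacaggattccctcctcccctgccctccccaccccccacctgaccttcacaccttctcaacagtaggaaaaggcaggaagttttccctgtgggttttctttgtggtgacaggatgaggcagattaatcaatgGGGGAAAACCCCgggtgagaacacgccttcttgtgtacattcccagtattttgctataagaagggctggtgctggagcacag
Ccl9, chr11:83578637-83578886, − strand: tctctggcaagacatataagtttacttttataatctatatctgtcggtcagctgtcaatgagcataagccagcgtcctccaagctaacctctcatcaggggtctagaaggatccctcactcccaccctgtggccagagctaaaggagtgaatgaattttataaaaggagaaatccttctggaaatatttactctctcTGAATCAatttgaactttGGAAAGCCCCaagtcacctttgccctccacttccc
The Ccl20 window held overlapping κB-like matches that began 82, 81 and 80 bases before the start. The Ccl9 window held 1 κB-like match, on the opposite strand and 35 bases before the start, and 1 AP-1 match at 53 bases. These letters are common, since 46.0% of 32536 windows of the same length held the κB-like pattern and 6.73% held the AP-1 pattern. A narrower κB-like pattern (GGGAANNNCC), chosen after the Ccl20 sequence had been read, stood in 4.95% of windows, 81 bases before the start in Ccl20 and not in the Ccl9 window. No pattern matched in the Ccl3 and Ccl8 windows.

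The libraries held 15830658 to 39959888 counts in genes (median 25363482), and a count of 3 corresponded to 0.0760 to 0.185 CPM, the count scaled to the library total. All 9 chondrocyte markers examined were detected and were called lower with IL-1b in the GFP libraries, and all 9 markers of an IL-1b response were called higher. Of all genes tested there, 28.3% were called lower and 28.0% higher. The targeted genes followed the labels: Ldha fell from 868 to 917 CPM in the GFP libraries of its line to 111 to 118 with Cre, Nampt fell from 54.5 to 59.4 CPM to 6.71 to 6.85, and Nfkbiz under IL-1b fell from 229 to 235 CPM to 29.5 to 32.3. Without IL-1b, Nfkbiz in its own line was at 16.1 to 16.9 CPM with GFP and 8.27 to 9.64 with Cre. Under IL-1b Nfkbiz was also lower with Cre in LDHA flox (164 to 177 against 66.9 to 69.7 CPM) and NAMPT flox (202 to 203 against 60.8 to 67.6 CPM). In 2 wild type libraries the response genes ran against the label. The library labelled IL-1b replicate 2 held Il6 at 0 and Mmp3 at 0.783 CPM, whereas the library labelled FX11 replicate 2 held Il6 at 15.0 and Mmp3 at 2014 CPM. The summed CPM of 12 myeloid markers was 111 to 386 in the wild type libraries and 18.7 to 70.9 in the floxed ones, and Lyz2 stood at 51.2 to 132 and 1.94 to 8.36 CPM. In bulk RNA, fewer cells of a type and less RNA per cell cannot be told apart. All differences given below are log2 fold changes from edgeR's quasi-likelihood test with Benjamini-Hochberg adjustment over all genes tested in the comparison, and a gene is called at an adjusted p of at most 0.05.

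In the floxed lines 5 members were abundant enough to be tested, namely Ccl2, Ccl7, Ccl5, Ccl20 and Ccl9. The other 4 stayed below 1 CPM in every floxed library. Ccl3 reached 0.752 CPM, Ccl4 0.508 CPM and Ccl11 0.282 CPM there, each in an LDHA flox GFP library with IL-1b. Ccl8 was at 0 counts in 24 of the 32 libraries and reached 14 counts at most. Scaled for transcript length, the 9 genes together gave 7.28 to 12.5 CPM per kb in the GFP libraries and 277 to 368 CPM per kb in the GFP libraries with IL-1b. Without IL-1b, Ccl9 held 32.7% to 77.1% of that sum and Ccl2 held 17.5% to 42.5%, with Ccl2 the larger in 3 of the 6 libraries. With IL-1b, Ccl2 held 81.0% to 87.7%.

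**Figure D1:**
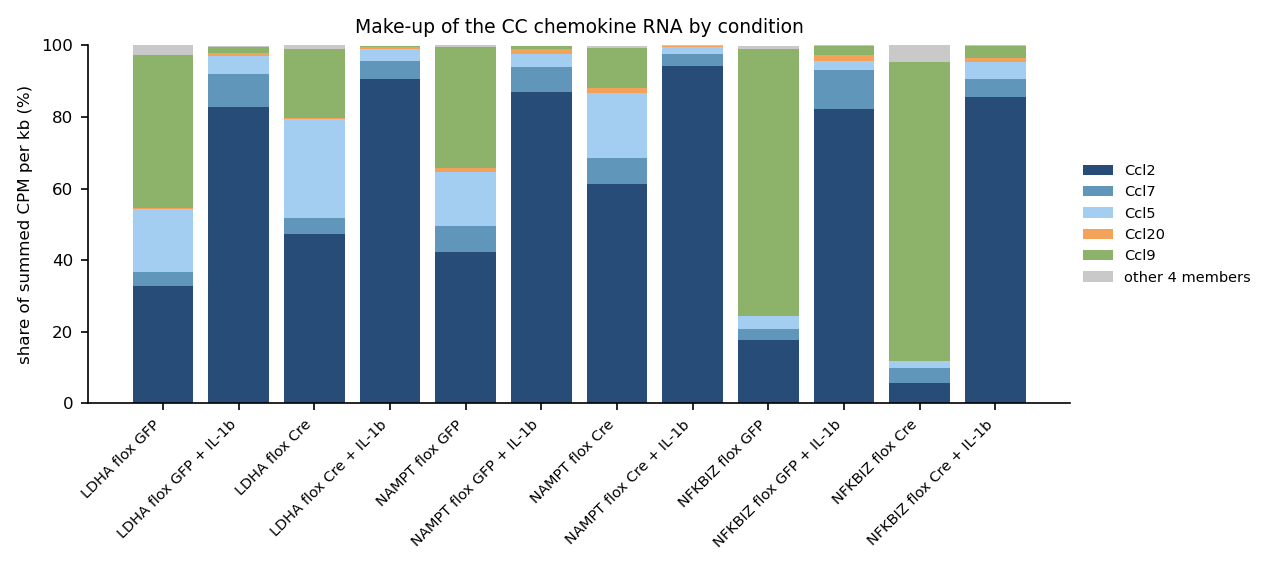
Stacked bars give the share (%) of the summed CPM per kb of the 9 CC chemokines for the 12 floxed conditions, each the mean of 2 libraries. Ccl2 (dark blue) made up most of the sum in every condition with IL-1b, 81.0% to 95.1% in single libraries, and Ccl9 (green) was at 0.0748% to 3.50% there.

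The first question was which members IL-1b raised in cells that kept the floxed gene. Over the GFP libraries of all 3 lines, 4 of the 5 members tested were higher with IL-1b and none was lower, where 56.2% of the 14283 genes tested were called. Without IL-1b, Ccl7 reached at most 0.578 CPM and Ccl20 at most 0.253 CPM. Both passed the filter of over 1 CPM in 5 libraries only through the libraries with IL-1b, so the filter in part set this count. Ccl2 rose from 3.49 ± 1.60 to 306 ± 41.2 CPM (SD, n = 6), a change of 6.43 ± 0.17 (SE, adjusted p = 1.03e-14) or 86.3-fold. Ccl7 rose from 0.365 ± 0.196 to 23.1 ± 4.49 CPM, by 5.89 ± 0.20 (adjusted p = 1.82e-13). No library with IL-1b overlapped with a library without it for either gene.

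Ccl5 rose less, from 1.20 ± 0.782 to 11.7 ± 4.29 CPM, by 3.29 ± 0.21 (adjusted p = 7.86e-10). Ccl20 rose from 0.0827 ± 0.0938 to 5.86 ± 1.86 CPM, by 5.85 ± 0.35 (adjusted p = 3.77e-10). Both sets of 6 libraries were again separate. Ccl9 stood at 14.0 ± 3.79 CPM without IL-1b and 16.3 ± 8.30 with it, a difference of 0.13 with a 95% interval of −0.15 to 0.41 (adjusted p = 0.429). Leaving out NAMPT flox GFP + IL-1b replicate 1 brought the difference for Ccl9 to 0.26 (adjusted p = 0.0486), and the second title series alone gave 0.41 (adjusted p = 0.0101).

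The same 4 members were called higher with IL-1b in the GFP arm of each line separately, and Ccl9 was called in none of them. This compares with 27.9% of genes called in LDHA flox, 35.0% in NAMPT flox and 26.8% in NFKBIZ flox. Ccl7 and Ccl20, and in NFKBIZ flox Ccl5 as well, again passed the filter only through libraries with IL-1b. With the wild type libraries labelled untreated and IL-1b added, which makes 8 libraries against 8, the 4 members were called higher as well, where 39.0% of genes were called, although these 8 include the library that runs against its IL-1b label. Ccl2 then changed by 5.79 ± 0.83 (adjusted p = 0.000191) and Ccl20 by 6.06 ± 0.76 (adjusted p = 8.23e-05). Ccl20 passed the filter there only through libraries with IL-1b.

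**Figure D2:**
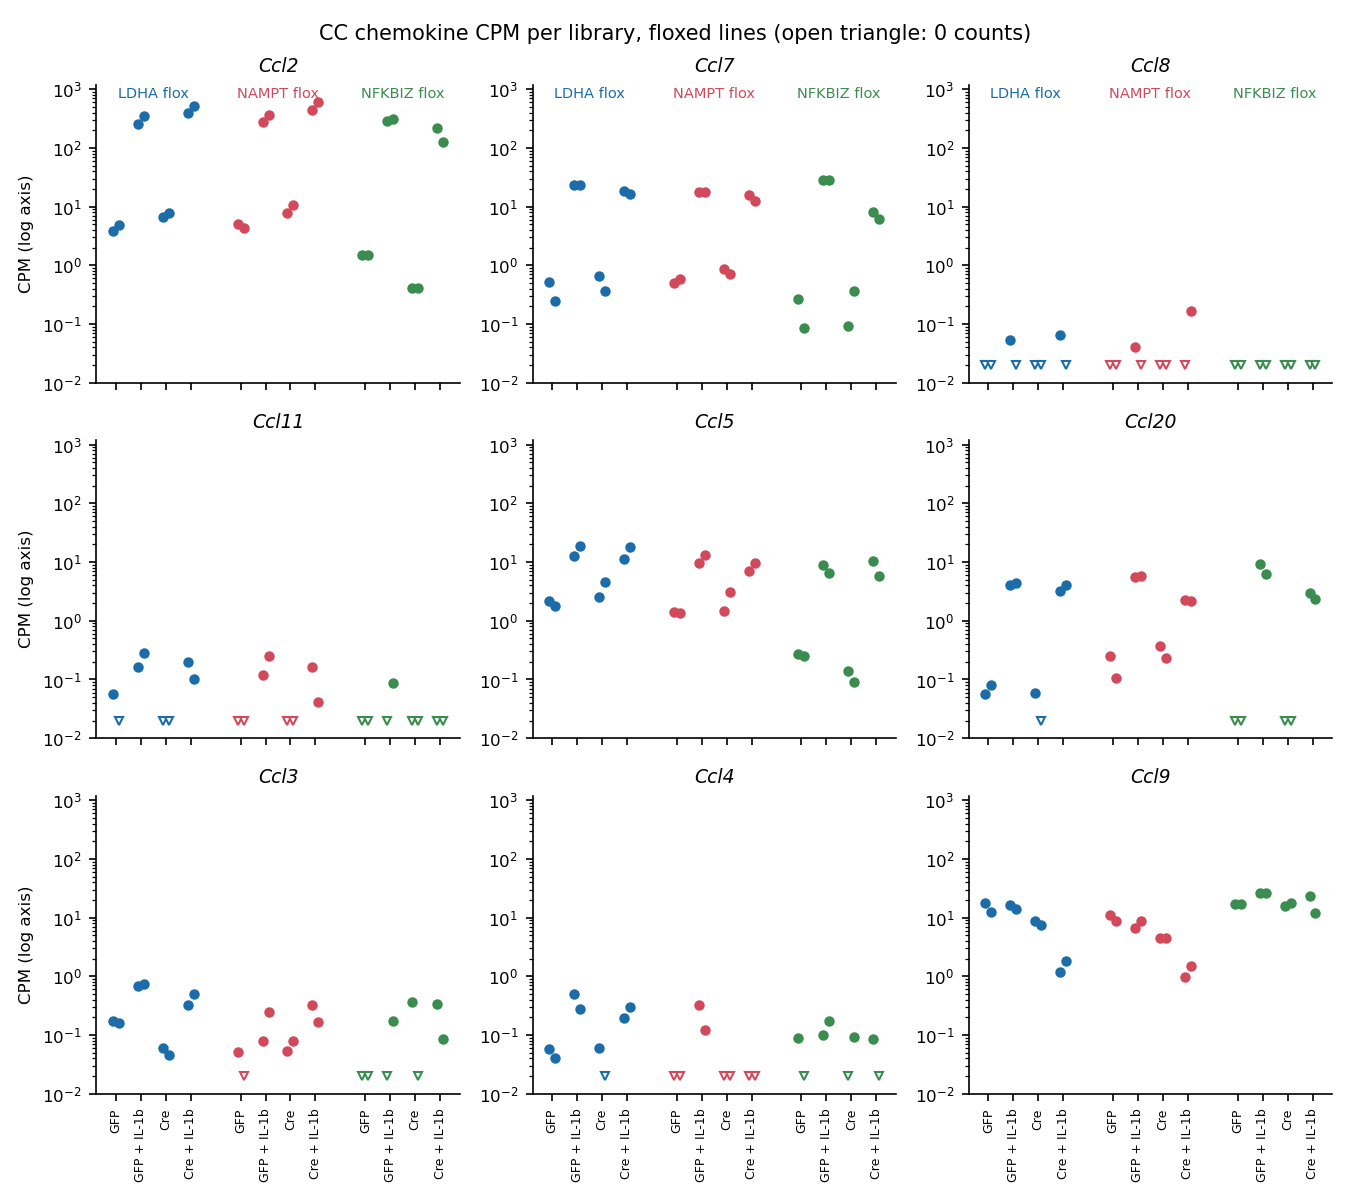
Each point is the CPM of 1 member in 1 floxed library on a log axis, with 2 libraries for each of the 4 conditions of the LDHA flox (blue), NAMPT flox (red) and NFKBIZ flox (green) lines; open triangles mark libraries with 0 counts. Ccl2, Ccl7, Ccl5 and Ccl20 are higher in all libraries with IL-1b than in those without it in the same virus arm, and Ccl9 is lowest, at 0.963 to 1.81 CPM, in the LDHA flox and NAMPT flox Cre libraries with IL-1b.

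Ccl2, the main monocyte attractant, was the most abundant member under IL-1b and responded to Cre in opposite directions in different lines. In LDHA flox cells it was at 3.81 and 4.92 CPM with GFP and 6.77 and 7.77 CPM with Cre. With IL-1b it was at 255 and 353 CPM with GFP and 385 and 515 CPM with Cre. Both Cre libraries exceeded both GFP libraries in each setting. With 2 libraries against 2, here and below, such separation is common without any effect, and the share of all genes that separated was not counted. Under IL-1b the change was 0.59 ± 0.17 (adjusted p = 0.0271), and without IL-1b it was 0.72 with an interval of 0.21 to 1.24 (adjusted p = 0.118). The call under IL-1b was lost without GFP + IL-1b replicate 1 (0.34, adjusted p = 0.212) or Cre + IL-1b replicate 2 (0.34, adjusted p = 0.237), and with the libraries paired by title series the difference without IL-1b was called too (0.73, adjusted p = 0.000112).

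In NAMPT flox cells Ccl2 was at 4.97 and 4.25 CPM with GFP and 7.92 and 10.4 CPM with Cre. With IL-1b the values were 274 and 356 CPM with GFP and 448 and 615 CPM with Cre, again with no overlap. Ccl2 was higher with Cre both without IL-1b (0.95 ± 0.22, adjusted p = 0.0155) and under it (0.77 ± 0.16, adjusted p = 0.00242). The call without IL-1b was lost without GFP replicate 1 (adjusted p = 0.0631), GFP replicate 2 (adjusted p = 0.0618) or Cre replicate 2 (adjusted p = 0.0928), and with limma (0.90, adjusted p = 0.297).

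In NFKBIZ flox cells the direction was the other way. Ccl2 stood at 1.51 and 1.48 CPM with GFP and at 0.411 and 0.414 CPM with Cre, which was 9 counts in each Cre library. With IL-1b it stood at 292 and 307 CPM with GFP and 217 and 126 CPM with Cre. Both Cre libraries were below both GFP libraries in each setting. The fall under IL-1b was called (−0.82 ± 0.18, adjusted p = 0.00722), though not without GFP + IL-1b replicate 2 (−0.79, adjusted p = 0.0560), and it was −1.27 without Cre + IL-1b replicate 1 and −0.48 without Cre + IL-1b replicate 2. Without IL-1b the difference was −1.85 with an interval of −2.96 to −0.75 (adjusted p = 0.295), and it was called by DESeq2 (−1.87, adjusted p = 0.00382) and by edgeR without Cre + IL-1b replicate 1 (adjusted p = 0.00454) or replicate 2 (adjusted p = 0.00417).

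Ccl7 is a second Ccr2 ligand whose gene lies next to Ccl2. With Cre under IL-1b, Ccl7 fell along with Ccl2 in NFKBIZ flox cells but did not rise with it in the other lines. In LDHA flox cells with IL-1b, Ccl7 was at 23.5 and 23.4 CPM with GFP and 18.3 and 16.1 CPM with Cre. In NAMPT flox cells it was at 18.0 and 17.8 CPM with GFP and 15.5 and 12.3 CPM with Cre. In both lines the Cre libraries were the lower ones for Ccl7, whereas they were the higher ones for Ccl2. The differences were −0.43 (−0.83 to −0.02, adjusted p = 0.101) and −0.34 (−0.67 to −0.02, adjusted p = 0.0772), and neither was called in the main test. Both were called with the libraries paired by title series (adjusted p = 0.0154 and 0.0311). Limma also called both (−0.42 and −0.33, adjusted p = 0.0139 and 0.0420), and edgeR without the filter called the LDHA flox one (adjusted p = 0.0430). Single omissions also brought calls, without LDHA flox GFP replicate 2 (−0.42, adjusted p = 0.0497) and without NAMPT flox Cre + IL-1b replicate 1 (−0.55, adjusted p = 0.0382).

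In NFKBIZ flox cells Ccl7 under IL-1b was at 27.8 and 28.1 CPM with GFP and 7.94 and 6.25 CPM with Cre. It fell by 1.99 on the log2 scale (SE 0.21, adjusted p = 3.73e-05), the largest fall of a member in this line. Without IL-1b Ccl7 was below 1 CPM in all 12 floxed libraries, with 2 to 33 counts, and no Cre difference was called.

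Since both genes encode ligands of Ccr2, the ratio of their counts was taken under IL-1b, a measure chosen after the values had been seen. It was 10.9 and 15.1 with GFP and 21.0 and 32.1 with Cre in LDHA flox cells. It was 15.2 and 20.0 with GFP and 29.0 and 49.9 with Cre in NAMPT flox cells, and 10.5 and 10.9 with GFP and 27.3 and 20.2 with Cre in NFKBIZ flox cells. The log2 ratio was higher with Cre by 1.02, 1.12 and 1.13 in the 3 lines, 2.13-fold on average, whichever way Ccl2 itself moved. The wild type library labelled IL-1b replicate 1, without virus, had a ratio of 7.13.

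**Figure D3:**
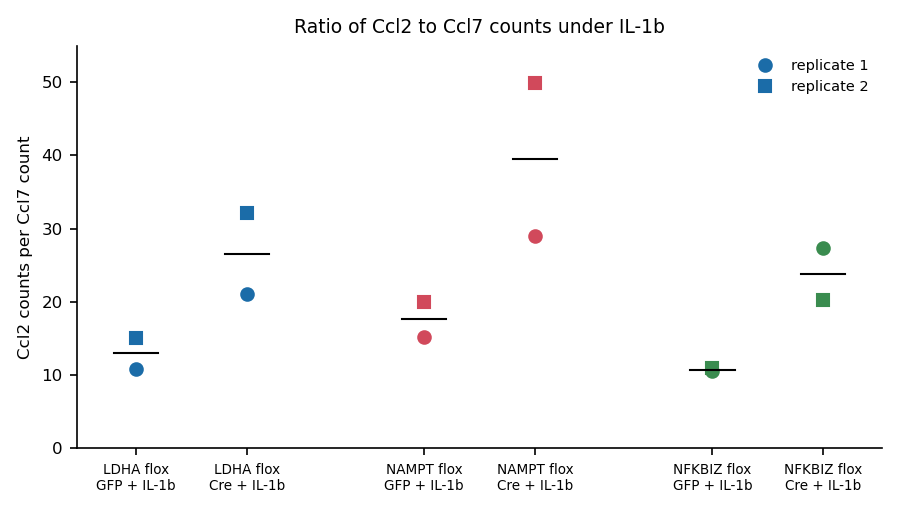
The number of Ccl2 counts per Ccl7 count is shown for the 12 floxed libraries with IL-1b, with circles for replicate 1, squares for replicate 2 and a line at the mean of each pair. In each line both Cre libraries (20.2 to 49.9 over the lines) lie above both GFP libraries (10.5 to 20.0).

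Ccl5, an attractant of T cells and monocytes, was raised by IL-1b in every arm, and no difference between Cre and GFP was called under IL-1b. With IL-1b it was at 12.8 and 18.7 CPM with GFP and 11.4 and 17.8 CPM with Cre in LDHA flox cells. The values were 9.65 and 13.4 against 7.11 and 9.63 CPM in NAMPT flox cells, and 8.91 and 6.60 against 10.4 and 5.91 CPM in NFKBIZ flox cells. The arms overlapped in the LDHA flox and NFKBIZ flox lines but not in NAMPT flox. The intervals were −0.74 to 0.55, −1.09 to 0.19 and −0.53 to 0.65, and differences within these intervals could not be told from none. With the libraries paired by title series the NAMPT flox difference was called (−0.44, adjusted p = 0.0331).

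Without IL-1b the basal level of Ccl5 differed between lines, at 1.37 to 2.15 CPM in the LDHA flox and NAMPT flox GFP libraries and 0.253 to 0.267 CPM in the NFKBIZ flox ones. Cre libraries of the first 2 lines held 1.44 to 4.61 CPM. These differences from GFP were 0.81 (0.02 to 1.60, adjusted p = 0.265) and 0.67 (−0.15 to 1.49, adjusted p = 0.291), and the LDHA flox one was called when libraries were paired (0.75, adjusted p = 0.0410). In NAMPT flox it was called when Cre replicate 1, the lower of the pair, was left out (1.16, adjusted p = 0.0490).

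Ccl20, which recruits Ccr6-bearing lymphocytes, was close to absent before IL-1b. It had at most 14 counts in a floxed library without IL-1b and 0 counts in all 4 such NFKBIZ flox libraries. In LDHA flox cells with IL-1b it was at 4.09 and 4.32 CPM with GFP and 3.17 and 4.11 CPM with Cre, a difference of −0.19 (−0.89 to 0.51, adjusted p = 0.690). In the other two lines the Cre libraries lay well below the GFP libraries. NAMPT flox cells held 5.60 and 5.74 CPM with GFP and 2.22 and 2.21 CPM with Cre (−1.34 ± 0.30, adjusted p = 0.00380). NFKBIZ flox cells held 9.26 and 6.17 CPM with GFP and 2.92 and 2.34 CPM with Cre (−1.56 ± 0.32, adjusted p = 0.00686), a call that was lost without GFP + IL-1b replicate 1 (−1.24, adjusted p = 0.111).

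The size of the IL-1b response of Ccl20 was limited by these low starting counts. In LDHA flox GFP libraries 245 counts stood against 4, a ratio of 62.3 with an exact 95% interval of 24.0 to 231 for counting error only. In NFKBIZ flox cells 327 counts stood against 0 with GFP and 122 against 0 with Cre. Set against a level of 3 counts per library, Ccl20 with IL-1b was 57.8-fold higher in the GFP arm and 19.1-fold higher in the Cre arm, which is no lower limit. Counts of 2 outnumbered counts of 1 by 1.83 times over genes and libraries, so the mates of a read pair appear to have been counted singly, and intervals that treat counts as independent are too narrow. With the counts halved the LDHA flox interval was 17.0 to 522, and the lower 95% limits in NFKBIZ flox were 47.2 with GFP and 15.1 with Cre.

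Ccl9, a Ccr1 ligand made by macrophages and osteoclasts, behaved unlike the other 4. In LDHA flox cells it was at 17.9 and 12.5 CPM with GFP, 16.2 and 14.1 CPM with GFP and IL-1b, 8.71 and 7.41 CPM with Cre, and 1.19 and 1.81 CPM with Cre and IL-1b. The Cre libraries were below the GFP libraries in both settings, and those with IL-1b were the lowest of all. Cre was followed by a fall of 0.93 on the log2 scale without IL-1b (SE 0.21, adjusted p = 0.0294) and a fall of 3.35 under it (SE 0.25, adjusted p = 6.89e-06), which is 10.2-fold lower. The interaction was −2.42 ± 0.32 (adjusted p = 0.00128). The smaller fall was no longer called without GFP replicate 1 (−0.64, adjusted p = 0.184), Cre replicate 1 (−1.05, adjusted p = 0.106) or Cre replicate 2 (−0.83, adjusted p = 0.185), whereas the fall under IL-1b was called without any 1 of the 8 libraries, at −3.67 to −3.07.

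NAMPT flox cells gave the same order. Ccl9 was at 10.9 and 8.82 CPM with GFP, 6.64 and 8.70 CPM with GFP and IL-1b, 4.43 and 4.52 CPM with Cre, and 0.963 and 1.5 CPM with Cre and IL-1b. Cre was followed by a fall of 1.15 without IL-1b (SE 0.21, adjusted p = 0.00437) and of 2.65 under it (SE 0.25, adjusted p = 8.94e-06). The interaction was −1.49 ± 0.33 (adjusted p = 0.00865). Each of the 4 Cre libraries with IL-1b in these 2 lines held 36 counts of Ccl9, so these low values rest on few reads. Without GFP replicate 1 the fall without IL-1b was −0.99 (adjusted p = 0.0514).

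IL-1b lowered Ccl9 in the Cre libraries of both lines, by 2.43 in LDHA flox (SE 0.25, adjusted p = 5.56e-05) and by 1.85 in NAMPT flox (SE 0.25, adjusted p = 0.000152). In the same libraries it raised the other 4 members, Ccl2 by 6.00 and 5.92, Ccl7 by 5.04 and 4.17, Ccl5 by 2.08 and 1.96, and Ccl20 by 6.54, from 2 counts, and 2.87. All 5 members tested were thus called in each, where 35.9% and 43.9% of genes were called. Ccl7 and Ccl20 were below 1 CPM in the Cre libraries without IL-1b. Both passed the filter only through libraries with IL-1b, so the filter in part set these counts.

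In NFKBIZ flox cells Ccl9 was at 16.8 and 17.1 CPM with GFP and 15.9 and 17.6 CPM with Cre. With IL-1b it was at 26.3 and 25.8 CPM with GFP and 23.7 and 12.2 CPM with Cre, and the 2 Cre libraries differed from each other more than from those without IL-1b. The Cre difference was −0.03 (−0.52 to 0.46, adjusted p = 1) without IL-1b and −0.55 (−1.03 to −0.07, adjusted p = 0.110) under it. With all libraries kept, the second value was called by limma (−0.63, adjusted p = 0.0424) and by edgeR without the filter (−0.55, adjusted p = 0.00284). Without Cre + IL-1b replicate 1 it was −1.11. The IL-1b difference in the Cre arm also hung on these 2 libraries, being 0.11 (−0.38 to 0.60, adjusted p = 0.764) with both, −0.45 (adjusted p = 0.0291) without replicate 1 and 0.51 (adjusted p = 0.0172) without replicate 2. In the GFP arm the rise was 0.63 (0.15 to 1.11, adjusted p = 0.0517), and it was called by DESeq2 (0.64, adjusted p = 0.0242) and by edgeR without Cre + IL-1b replicate 1 (adjusted p = 0.000603) or replicate 2 (adjusted p = 0.000493).

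**Figure D4:**
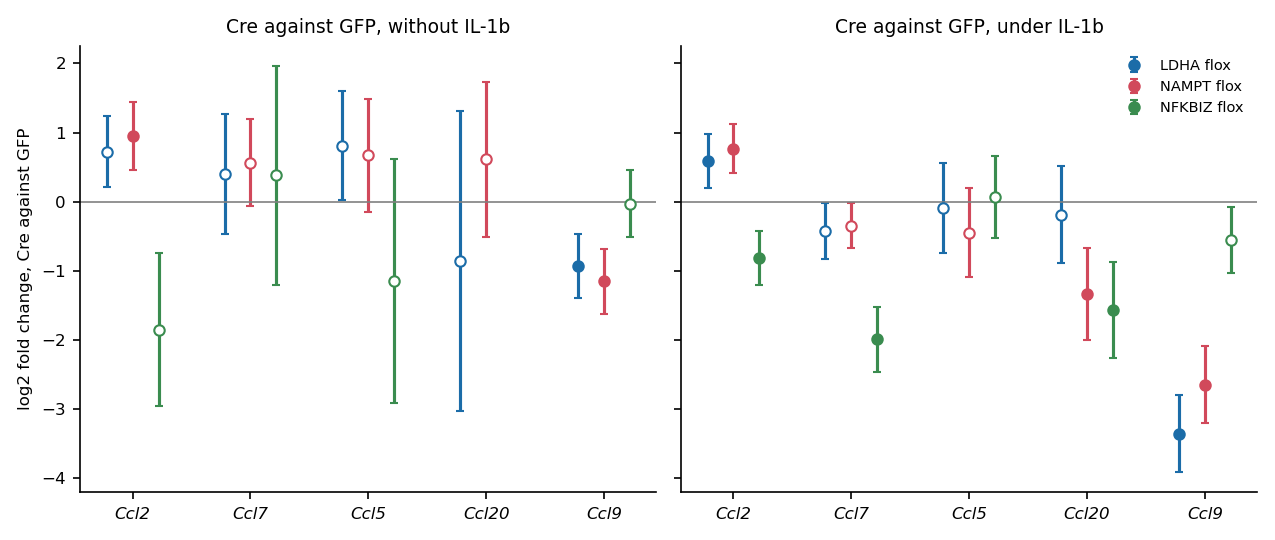
Points give the log2 fold change of Cre against GFP for the 5 members tested, without IL-1b (left) and under IL-1b (right), with bars for the 95% interval of edgeR's quasi-likelihood fit from 2 libraries a group; filled points are called at an adjusted p of at most 0.05. Under IL-1b Ccl9 is at −3.35 in LDHA flox (blue) and −2.65 in NAMPT flox (red), and Ccl2 is above 0 in those 2 lines and at −0.82 in NFKBIZ flox (green); Ccl20 without IL-1b in NFKBIZ flox is left out because all 4 libraries held 0 counts.

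Counted over the members, Cre under IL-1b gave 1 higher (Ccl2) and 1 lower (Ccl9) of 5 in LDHA flox, where 34.0% of genes were called, 1 higher (Ccl2) and 2 lower (Ccl20 and Ccl9) in NAMPT flox, where 48.4% were called, and 3 lower (Ccl2, Ccl7 and Ccl20) in NFKBIZ flox, where 17.4% were called. The shares of members called in the first 2 lines were thus near those of all genes. Their median was −0.19, −0.45 and −0.82, against −0.02, −0.03 and −0.01 over all genes tested. Without IL-1b, 1 member was called in LDHA flox (Ccl9, background 5.52%) and 2 in NAMPT flox (Ccl2 and Ccl9, background 14.4%). In NFKBIZ flox edgeR called 0 (background 0.260%), with 1 member, Ccl2, at an unadjusted p under 0.05, and DESeq2 called that 1. With the libraries paired by title series the count without IL-1b in LDHA flox became 3 (Ccl2 and Ccl5 were added), where 12.6% of genes were called. Under IL-1b it became 3 in LDHA flox (Ccl7 was added), where 44.8% were called, and 5 in NAMPT flox (Ccl5 and Ccl7 were added), where 58.3% were called.

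The interaction, that is, whether the IL-1b response differed between Cre and GFP, was called for Ccl9 in LDHA flox (background 11.5%) and for Ccl9 and Ccl20 in NAMPT flox (background 22.0%). For Ccl20 it was −1.95 ± 0.59 (adjusted p = 0.0379), and it was lost without any 1 of 6 of the 8 libraries (adjusted p = 0.0734 to 0.215), each of the GFP + IL-1b and Cre + IL-1b pairs, GFP replicate 2 and Cre replicate 1. Paired by title series, Ccl5 was called in LDHA flox (−0.85, adjusted p = 0.0393), and Ccl5 (−1.02, adjusted p = 0.00995) and Ccl7 (−0.93, adjusted p = 0.0436) were called in NAMPT flox, where the background rose to 21.2% and 35.0%. In NFKBIZ flox edgeR called 0 (background 5.19%), with 1 member, Ccl7, at an unadjusted p under 0.05 (−2.37, adjusted p = 0.119), and DESeq2 called it (adjusted p = 0.0277). Leaving out 1 library brought a call there for Ccl7 without Cre replicate 1 (−3.04, adjusted p = 0.0488), Ccl9 without Cre + IL-1b replicate 1 (−1.08, adjusted p = 0.00208) and Ccl2 without Cre + IL-1b replicate 2 (1.37, adjusted p = 0.00966), and in NAMPT flox for Ccl5 without Cre replicate 1 (−1.61, adjusted p = 0.0177) and Ccl7 without Cre + IL-1b replicate 1 (−1.13, adjusted p = 0.0408). The IL-1b response within the NFKBIZ flox Cre arm was called for 4 members, all higher (background 22.1%). Of these, Ccl5, Ccl7 and Ccl20 passed the filter in that line only through libraries with IL-1b, so the filter in part set this count. The interaction of Ccl20 in that line could not be fitted, as all 4 libraries without IL-1b held 0 counts.

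Whether the lines differed was tested in a model of the 24 floxed libraries. The effect of Cre under IL-1b was lower in NFKBIZ flox than in LDHA flox for Ccl2 (−1.38 ± 0.20, adjusted p = 1.13e-05), Ccl7 (−1.53 ± 0.23, adjusted p = 2.11e-05) and Ccl20 (−1.33 ± 0.41, adjusted p = 0.0187), and higher for Ccl9 (2.85 ± 0.36, adjusted p = 2.29e-06). That is 4 of 5 members where 27.0% of the 16727 genes were called. Against NAMPT flox it was lower for Ccl2 (−1.54 ± 0.20, adjusted p = 1.69e-06) and Ccl7 (−1.60 ± 0.23, adjusted p = 9.41e-06) and higher for Ccl9 (2.15 ± 0.38, adjusted p = 0.000103), where 36.3% were called. The first Ccl20 difference was lost without LDHA flox GFP + IL-1b replicate 1 (adjusted p = 0.0770), LDHA flox Cre + IL-1b replicate 2 (adjusted p = 0.102), NFKBIZ flox GFP + IL-1b replicate 1 (adjusted p = 0.119) or NFKBIZ flox Cre + IL-1b replicate 2 (adjusted p = 0.0616), and without that last library Ccl5 was called against NAMPT flox (0.90, adjusted p = 0.0246).

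Between NAMPT flox and LDHA flox edgeR called no member for the Cre effect (background 0.538%), with 1, Ccl20, at an unadjusted p under 0.05 (−1.15, −2.0 to −0.30, adjusted p = 0.229), which limma called (−1.10, adjusted p = 0.0358). For Ccl9 the difference between these 2 lines was 0.70 with an interval of −0.25 to 1.65. The NFKBIZ flox libraries were all titled in the second series, while each condition of the other 2 lines had 1 library of each series, so the line and the title series are partly confounded in these differences.

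The IL-1b response in the GFP arm was stronger in NFKBIZ flox than in LDHA flox for Ccl2 (1.54 ± 0.33, adjusted p = 0.0105, background 2.42%). Against NAMPT flox it was stronger for Ccl2 (1.61 ± 0.33, adjusted p = 0.00479), Ccl7 (2.19 ± 0.56, adjusted p = 0.0249) and Ccl20 (adjusted p = 0.0262), where 4.01% of genes were called. The starting level of Ccl2 was lower in NFKBIZ flox cells (1.48 and 1.51 against 3.81 to 4.97 CPM), and their level with IL-1b, 292 and 307 CPM, lay within the 255 to 356 CPM of the other two lines. The fitted Ccl20 value, 5.84, is no bound because the NFKBIZ flox GFP libraries held 0 counts. Ccl2 against LDHA flox was lost without LDHA flox GFP replicate 1 (adjusted p = 0.0536), NFKBIZ flox GFP replicate 1 (adjusted p = 0.0677) or NFKBIZ flox GFP replicate 2 (adjusted p = 0.0701). Against NAMPT flox, Ccl2, Ccl7 and Ccl20 were all lost without NAMPT flox GFP replicate 1 (adjusted p = 0.104, 0.0888 and 0.252). Ccl7 was also lost without NAMPT flox GFP replicate 2 (adjusted p = 0.0972), NAMPT flox GFP + IL-1b replicate 1 (adjusted p = 0.0629) or NFKBIZ flox GFP replicate 2 (adjusted p = 0.183), and Ccl20 without any 1 of 6 of the 24 libraries and with limma (3.69, adjusted p = 0.0653). Ccl5 (1.95 and 1.87, adjusted p = 0.0648 and 0.0671 against the 2 lines) was called in both by DESeq2 (adjusted p = 0.0144 and 0.0208) and without either NFKBIZ flox Cre + IL-1b library (adjusted p = 0.0219 to 0.0258), and against LDHA flox without LDHA flox GFP replicate 2 (adjusted p = 0.0289). Ccl9 against NAMPT flox (0.99, adjusted p = 0.0884) was called by limma (1.04, adjusted p = 0.00915) and without either NFKBIZ flox Cre + IL-1b library (adjusted p = 0.0122 and 0.0115). Between NAMPT flox and LDHA flox no member was called by edgeR, DESeq2 or limma, and none had an unadjusted p under 0.05 (background 0.0120%).

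Markers of other cells were counted in the same contrasts. Of all genes, 34.0% were called in LDHA flox, 48.4% in NAMPT flox and 17.4% in NFKBIZ flox. Under IL-1b the summed CPM of the 12 myeloid markers was 49.2 to 52.9 with GFP and 35.1 to 38.4 with Cre in LDHA flox, 38.1 to 41.8 and 28.9 to 30.2 in NAMPT flox, and 70.5 to 70.9 and 62.0 to 64.1 in NFKBIZ flox. Of these myeloid markers 2 of 10 tested were lower with Cre in LDHA flox, 3 lower and 1 higher of 6 in NAMPT flox, and 1 lower of 7 in NFKBIZ flox. The shares called in LDHA flox and NFKBIZ flox were below those of all genes. Chondrocyte markers were lower for 8 of 9 in LDHA flox and 7 of 9 in NAMPT flox, while 1 of 9 was higher in NFKBIZ flox. All 6 fibroblast and perichondrium markers were lower in LDHA flox and NAMPT flox, and 2 of 6 in NFKBIZ flox. The part of these shifts in the Ccl9 and Ccl2 values was not tested.

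The other lists give the setting of the cytokine response, against the same 34.0%, 48.4% and 17.4% of all genes called in the 3 lines. Of the 9 IL-1b response markers, 7 were lower with Cre under IL-1b in each line, and 2, the NF-κB inhibitors Tnfaip3 and Nfkbia, were higher in LDHA flox and NAMPT flox and were not called in NFKBIZ flox. The 7 include Nfkbiz, which is the targeted gene in NFKBIZ flox, so its fall in that line was set by the design. Interferon-stimulated genes were higher for 3 and lower for 1 of 10 in LDHA flox and in NAMPT flox, and higher for 2 of 8 tested in NFKBIZ flox. These shares were near those of all genes. Endothelial markers were higher for 1 of 4 tested in LDHA flox, higher for 2 and lower for 1 of 4 in NAMPT flox, and not called for 3 of 3 in NFKBIZ flox. Muscle markers were higher for 2 of 4 in LDHA flox, higher for 2 and lower for 1 of 4 in NAMPT flox, and higher for 1 of 2 in NFKBIZ flox, and lymphocyte markers were higher for 1 of 2, 1 of 2 and 0 of 1.

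In wild type cells the spread was wide. Ccl2 was at 39.6 and 12.7 CPM in the untreated libraries, 43.7 and 426 CPM in those labelled FX11, 666 and 4.92 CPM in those labelled IL-1b, and 602 and 198 CPM in those labelled IL-1b + FX11. Ccl7, in the same order, was at 7.73 and 1.58, 10.0 and 41.1, 93.4 and 0.970, and 91.3 and 35.6 CPM. For both genes the library labelled IL-1b replicate 2 was below the untreated libraries, and the library labelled FX11 replicate 2 was among the high ones, as for Il6 and Mmp3.

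Ccl5 was at 0.708 and 0.844 CPM untreated, 0.5 and 73.0 CPM with FX11, 40.1 and 0.0746 CPM with IL-1b, and 18.3 and 42.4 CPM with IL-1b + FX11. Ccl20 was at 0.118 and 0, 0.0555 and 7.94, 7.62 and 0, and 4.43 and 1.67 CPM. These 2 genes showed the same 2 contrary libraries. Ccl9 was at 12.6 and 49.3, 16.6 and 143, 38.2 and 29.4, and 27.1 and 81.0 CPM. In 3 of the 4 conditions the library of the second title series held more Ccl9, the exception being IL-1b.

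The members that were nearly silent in the floxed lines were seen here. Ccl3, a macrophage chemokine, was at 2.68 and 1.62 CPM untreated, 4.30 and 2.36 CPM with FX11, 7.31 and 1.38 CPM with IL-1b, and 13.0 and 5.14 CPM with IL-1b + FX11. Ccl4, its close relative, was at 0.149 to 1.96 CPM over the 8 libraries. Ccl11, the eosinophil attractant, reached 2.76 CPM in the library labelled IL-1b replicate 1 and was at 0 to 0.509 CPM in the others. Ccl3 was higher in every wild type library than in any floxed library, as was the summed level of the 12 myeloid markers (lowest 111 against highest 70.9 CPM), and Lyz2 followed. The part of these cells in the Ccl3 level was not tested.

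**Figure D5:**
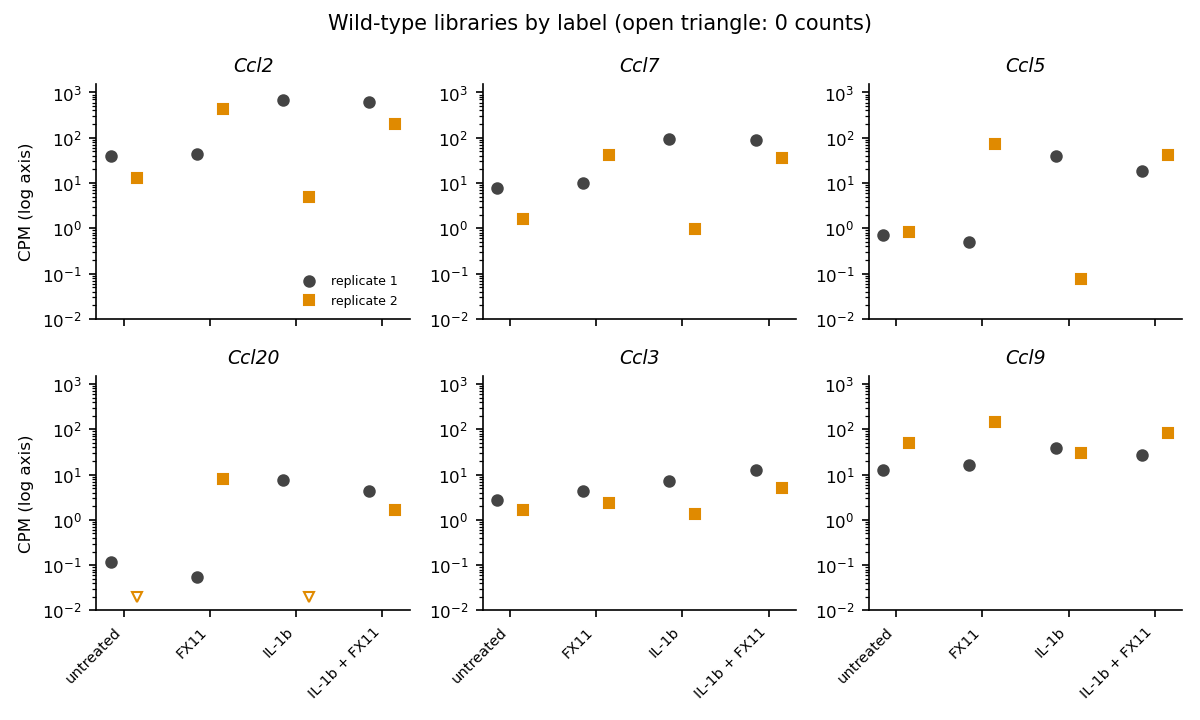
CPM of 6 members on a log axis in the 8 wild type libraries, placed by their labels, with circles for replicate 1 and squares for replicate 2; an open triangle marks 0 counts. For Ccl2, Ccl7 and Ccl5 the square at IL-1b (4.92 CPM for Ccl2) lies below the untreated libraries, for Ccl20 both it and untreated replicate 2 are at 0 counts, and for all 4 the square at FX11 (426 CPM for Ccl2) lies above the untreated libraries.

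No member was called in wild type cells. Of 8 members tested, edgeR called 0 for IL-1b against untreated, 0 for FX11 against untreated, 0 for IL-1b + FX11 against untreated and 0 for IL-1b + FX11 against IL-1b, with adjusted p values of 0.874 to 1, and none had an unadjusted p under 0.05. DESeq2 and limma called 0 of the members as well. The background was 0 of 15461 genes in each of the 4 comparisons (0%), with 153, 68, 860 and 102 genes at an unadjusted p of at most 0.05 and 6, 2, 153 and 1 genes called by DESeq2. For IL-1b + FX11 against IL-1b, the comparison that asks whether the inhibitor altered the response, the difference was 0.25 for Ccl2 with an interval of −4.23 to 4.73, so these libraries cannot show a change of any moderate size. When only the untreated and IL-1b + FX11 libraries were fitted, a choice made after the contrary libraries were seen, no member was called either, and 1 gene in all was.

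Within the first title series, which holds 1 library a condition and so no test, Ccl2 was at 666 CPM with IL-1b and 602 CPM with IL-1b + FX11, and Ccl7 was at 93.4 and 91.3 CPM. Ccl5 was at 40.1 and 18.3 CPM, Ccl20 at 7.62 and 4.43 CPM, and Ccl9 at 38.2 and 27.1 CPM. Ccl3 alone of the abundant members was higher with the inhibitor, at 7.31 and 13.0 CPM.

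Other genes of the system were sparse. Of 12 further mouse CC chemokines 3 could be tested in the floxed lines, and Ccl25 and Ccl27a had the highest mean levels, 4.83 and 4.46 CPM over the 32 libraries. With IL-1b in the 12 GFP libraries Ccl25 was higher by 0.54 ± 0.12 (adjusted p = 0.00127) and Ccl6 by 1.14 ± 0.25 (adjusted p = 0.000861), and 1 was not called. Under IL-1b, Ccl6, a myeloid chemokine, was lower with Cre in LDHA flox (−1.78 ± 0.49, adjusted p = 0.0189) and in NAMPT flox (−1.74 ± 0.66, adjusted p = 0.0498), while Ccl27a was higher in NAMPT flox (1.05 ± 0.25, adjusted p = 0.00575). No other of the 12 was called in that contrast in any line.

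The receptors of these ligands were barely detected. Of 10 CC chemokine receptors, none passed the filter in the LDHA flox and NFKBIZ flox lines and 1 did in NAMPT flox. Ccr1 had the highest mean over all libraries, at 0.839 CPM. Ccr7, the receptor of Ccl19 and Ccl21, was the 1 tested. Under IL-1b in NAMPT flox it was at 1.79 to 2.71 CPM with Cre and 0.185 to 0.240 CPM with GFP. This difference was called (3.36 ± 0.76, adjusted p = 0.00391), where 48.4% of genes were called. Of these libraries only those with Cre passed the 1 CPM of the filter, so the call is a description and not independent support. Of 4 atypical receptors, which bind chemokines without G protein signalling, Ackr4 was tested and Cre under IL-1b gave no call in any line, and IL-1b lowered it in the Cre libraries of NAMPT flox (−1.44 ± 0.34, adjusted p = 0.00556). Ccrl2 was next in level, at 0.189 CPM.

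Across the 32 libraries, which share treatments and title series, the profiles of log2(CPM + 1) placed Ccl2 nearest to Bcl3 (Pearson r = 0.95), Nfkbia (r = 0.95) and Ntn1 (r = 0.95) among 14250 genes, as a description. Ccl7 was nearest to Cxcl5 (r = 0.97), Il13ra1 (r = 0.97) and Cxcl1 (r = 0.96). Ccl20 was nearest to Sbno2 (r = 0.97), Ier3 (r = 0.96) and Saa3 (r = 0.96). Ccl5 was nearest to Ch25h, Camkk2 and Rras (r = 0.92 each).

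The members separated into those that followed Ccl2 and those that did not. Between Ccl2 and Ccl7 r was 0.94, between Ccl2 and Ccl20 it was 0.90 and between Ccl2 and Ccl5 it was 0.86, while between Ccl2 and Ccl9 it was −0.06. Ccl9 was nearest to Ntng2, Tmx4 and Ddt (r = 0.93 each). Ccl3 was nearest to Clec4n (r = 0.97), Ccl6 (r = 0.95) and Mmp8 (r = 0.95), genes of myeloid cells, and Ccl4 to Ifitm1 (r = 0.91), Cpd (r = 0.89) and Arl6ip5 (r = 0.88). Ccl11 was nearest to Serpina3h (r = 0.87), Cpd (r = 0.83) and Mybph (r = 0.81), a profile that rests on the single library at 2.76 CPM.

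Reads of Ccl2 could be shared with the overlapping gene Gm17268 on the opposite strand of chromosome 11, if counting ignored strand. Gm17268 had 36 counts over the 32 libraries and Ccl2 had 172475.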

How the data were processed

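RNA was sequenced from rRNA-depleted libraries (Illumina HiSeq). The authors aligned reads to Ensembl release 76 (GRCm38) with STAR and counted unique reads per gene with featureCounts (versions 2.0.4b and 1.45 in the submitters' processing notes); whether strand was used is not given in the sources used here. The deposited files hold counts, CPM and RPKM per gene, made by the authors, and all tests here used the deposited counts. CPM was recomputed from the counts and library totals. After 355 rRNA genes were left out, genes over 1 CPM in at least 1 library of a model (5 of 12 or 7 of 16 for the pooled controls) were tested in edgeR 4.0.16 (R 4.3.3, TMM, quasi-likelihood) with Benjamini-Hochberg adjustment. Comparisons within a line used a model of that line alone. The model of the pooled controls also held line and title series, and the model for differences between lines also held title series. DESeq2 1.42.0, limma 3.58.1 (voom with quality weights) and other settings were alternatives. Scripts were tested on simulated data.

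Groups came from the labels. Titles fall into 2 series, 12 libraries numbered alone and 20 numbered after the word Sample. Replicate numbers follow the series in LDHA flox, NAMPT flox and wild type cells. In LDHA flox and NAMPT flox same-numbered libraries deviated together (r 0.35 to 0.57 and 0.37 to 0.48 over 14250 genes), so these libraries were also paired by series. Such a correlation shows a shared shift of the series and not that the libraries came from 1 culture. In wild type cells r was −0.18 to 0.73, with the 2 contrary libraries included, so it cannot show whether the numbers pair those libraries. In NFKBIZ flox both replicates are of the second series. All replicates differed by more than counting noise.

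The members and gene lists were chosen with earlier results of these data known. Named were the 9 members, the 3 targeted genes, Il6 and Mmp3, the 2 most abundant genes of each other chemokine list (1 is not reported here), the 3 genes nearest to each member and any overlapping gene; Ccl6, Ccr7, Tnfaip3, Nfkbia and Lyz2 were named after their values were seen.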

Additional observations from a re-analysis of the deposited data

Results flagged for a closer look

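In the 8 control libraries with neither IL-1b nor Cre nor FX11, 3 values stood apart from the nearest other library. Ccl2 was at 39.6 CPM in wild type untreated replicate 1, with the next library at 12.7 CPM. Ccl7 was at 7.73 CPM in the same library, with the next at 1.58 CPM. Ccl9 was at 49.3 CPM in wild type untreated replicate 2, with the next at 17.9 CPM. In the 8 control libraries labelled IL-1b, wild type IL-1b replicate 1 stood apart for Ccl3 (7.31 CPM, next 1.38), Ccl4 (1.96 CPM, next 0.508), Ccl5 (40.1 CPM, next 18.7), Ccl7 (93.4 CPM, next 28.1) and Ccl11 (2.76 CPM, next 0.282). Chance sets about 1 in 20 groups of like samples apart, and these groups mix lines and cells with and without virus. The wild type libraries differ from the others in receiving no virus and in their myeloid marker level, and their part was not tested.

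Effects that differed between groups were, on the log2 scale, the effect of Cre under IL-1b in NFKBIZ flox less that in LDHA flox for Ccl20 (−1.33), Ccl2 (−1.38), Ccl7 (−1.53) and Ccl9 (2.85), and less that in NAMPT flox for Ccl2 (−1.54), Ccl7 (−1.60) and Ccl9 (2.15). The IL-1b response with GFP was larger in NFKBIZ flox than in LDHA flox for Ccl2 (1.54), and larger than in NAMPT flox for Ccl20 (5.84, against 0 counts), Ccl2 (1.61) and Ccl7 (2.19). The IL-1b response differed between Cre and GFP for Ccl9 in LDHA flox (−2.42) and for Ccl20 (−1.95) and Ccl9 (−1.49) in NAMPT flox.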

How the results depend on the processing

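Counts below are of members called. With all 32 libraries in 1 model, which takes the wide wild type spread into every test, the IL-1b count with GFP went from 4 to 2 in LDHA flox and NAMPT flox, and with Cre from 5 to 2 in NAMPT flox and from 4 to 1 in NFKBIZ flox; Cre without IL-1b fell to 0 in LDHA flox and NAMPT flox, Cre under IL-1b to 1, 1 and 0 in LDHA, NAMPT and NFKBIZ flox, the interactions to 0, and all differences between lines to 0, while IL-1b + FX11 against untreated rose from 0 to 2 (Ccl5 and Ccl7). All genes called moved likewise, for example from 4424 to 1414 for IL-1b with GFP in LDHA flox, from 7808 to 4934 for Cre under IL-1b in NAMPT flox and from 0 to 1561 for IL-1b + FX11 against untreated. Without the low-count filter, Cre without IL-1b gave 3 in LDHA flox and 1 in NFKBIZ flox, the interaction 2 and 1, and the IL-1b response of NFKBIZ flox exceeded that of LDHA flox for 2 and of NAMPT flox for 5. All genes called rose there too, in the same order from 877 to 1227, 40 to 170, 1825 to 2186, 797 to 1325, 404 to 549 and 670 to 1032. With the replicate block the counts were 3 (Cre without IL-1b) and 2 (interaction) in LDHA flox and 5 (Cre under IL-1b) and 4 (interaction) in NAMPT flox; other than these and Ccl7 in LDHA flox it changed no call in those lines. All genes called rose with the same block, from 877 to 1994 and from 1825 to 3374 in LDHA flox and from 7808 to 9400 and from 3552 to 5648 in NAMPT flox. Between lines, a replicate block of each line by title series, chosen after seeing the data, left the member counts at 4 and 3 for Cre, 1 and 3 for the IL-1b response and 0 and 0 for NAMPT flox less LDHA flox. No paired analysis was possible in NFKBIZ flox because both replicates of each condition are of the second series. DESeq2 gave 1 for Cre under IL-1b in LDHA flox (Ccl2 lost, adjusted p = 0.0733), 1 for Cre without IL-1b and for the interaction in NFKBIZ flox, and 2 for the IL-1b response of NFKBIZ flox less LDHA flox. It called 31.4%, 0.462%, 5.87% and 3.07% of all genes in these comparisons, in that order. Limma gave 1 for Cre without IL-1b (Ccl2 lost) and for the interaction (Ccl20 lost, adjusted p = 0.0792) in NAMPT flox, and 1 for the Cre effect of NAMPT flox less LDHA flox. Its shares of all genes called in these 3 comparisons were 14.2%, 21.9% and 3.98%. For Cre under IL-1b, limma also called Ccl7 in LDHA flox and NAMPT flox and Ccl9 in NFKBIZ flox. It called 36.2%, 49.8% and 15.8% of all genes there. For IL-1b in all controls, the second title series alone tested Ccl2 and Ccl9 and called Ccl2. Ccl5, Ccl7 and Ccl20 did not pass the filter of 7 libraries over 1 CPM there, so they were not tested. The cause of the other changes was not tested.

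Leaving out 1 library gave counts of 4 to 4 (LDHA, NAMPT) and 4 to 5 (NFKBIZ) for IL-1b with GFP, 5 to 5, 5 to 5 and 4 to 5 for IL-1b with Cre, 0 to 1, 0 to 3 and 0 to 1 for Cre without IL-1b, 1 to 3, 3 to 4 and 2 to 4 for Cre under IL-1b, 1 to 1, 1 to 2 and 0 to 1 for the interaction, 0 to 0 for each wild type comparison, 4 to 5 and 3 to 4 for the pooled controls, 3 to 4, 3 to 4 and 0 to 0 for the Cre effect and 0 to 2, 0 to 5 and 0 to 0 for the IL-1b response between NFKBIZ and LDHA, NFKBIZ and NAMPT, and NAMPT and LDHA flox. In the 16 pooled controls the count of 3 arose where Ccl20 no longer passed the filter and was not tested. Ccl20 was tested in 9 of these omissions and was called in each, at 5.84 to 6.37. One direction reversed: Ccl9 with IL-1b in NFKBIZ flox Cre libraries, −0.45 without Cre + IL-1b replicate 1 (0.51 without replicate 2). TMM against RLE scaling and edgeR's own filter moved no count of members by over 1.5 times. Depth limits Ccl8, Ccl11, Ccl4 and Ccl3 in the floxed lines and Ccl20 without IL-1b.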

Other observations

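Among the low members of the floxed lines, Ccl4 had 25 counts in the LDHA flox GFP libraries with IL-1b against 3 without it, and 10 against 0 in NAMPT flox. In NAMPT flox with IL-1b it had 10 counts with GFP and 0 with Cre. Ccl3 had 20 counts in the LDHA flox Cre libraries with IL-1b against 3 without it. These genes did not pass the filter and were not tested.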
